A study of Homo sapiens with 6 samples.

Results

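Integrins and tetraspanins are membrane proteins of the cell surface, and their RNA was followed in LoVo cells, an established human colorectal adenocarcinoma line, with and without the kinase inhibitor DCC-2036 (rebastinib). Members were taken by symbol: ITGA or ITGB followed by a number or letter alone, TSPAN followed by a number, and CD9, CD63, CD81, CD82 and CD151. The rule gave 53 of 19223 gene symbols, namely 18 integrin alpha subunits, 8 integrin beta subunits and 27 tetraspanins, carried by 116 of 45006 transcripts. ITGB1BP1, ITGB1BP2, ITGB3BP and ITGBL1, which share only letters with the integrins, were left out. A gene with several transcripts was represented by its most abundant one.

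The study compared 3 Control libraries, which received 0 μM DCC-2036, with 3 libraries from cells given 2.5 μM DCC-2036. All 6 share the same cell line, whose labels read adenocarcinoma of the colon and Dukes' type C. By the labels both groups were kept for 48 h, while a figure legend of the study gives a shorter time for the same dose. The labels do not say whether replicates were separate cultures, so the p-values measure only the spread between these libraries, which may be technical. Each value is a depth-adjusted signal per transcript, not a read count, and the depth behind it is unknown. Totals of these values ran from 38997229 to 40587145 in the Control libraries and from 43279603 to 48023306 in the DCC-2036 libraries, so all 3 treated libraries summed higher.

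Integrins are receptors made of 1 alpha and 1 beta chain that tie the cytoskeleton to the extracellular matrix, and the pair of chains sets whether laminin, collagen or ligands with an RGD motif are bound. Tetraspanins are small proteins with several membrane passes that gather integrins, proteases and other receptors into membrane microdomains. In the intestinal epithelium, integrins with ITGB1 and the ITGA6 and ITGB4 pair of hemidesmosomes hold cells to the basement membrane, and CD151, CD9 and CD81 are among the tetraspanins found beside them.

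The labelled cell type was checked against marker genes. Of 11 markers of colon epithelium, 7 had a mean value of at least 10, with KRT8 the most abundant, CDX1 and LGR5 were listed at 0 in all 6 libraries, and VIL1 and CEACAM5 stayed under that mean. Their summed value was 104483, 108193 and 114998 in Control replicates 1 to 3 and 148337, 163485 and 188447 in the DCC-2036 libraries. Of 8 leukocyte markers, 0 reached a mean of 10, CSF1R was the most abundant, and PTPRC, CD3D and MS4A1 were listed at 0 throughout. Their summed values ran from 4.62 in Control replicate 1 to 26.1 in DCC-2036 replicate 3. Among 7 fibroblast markers 2 reached that mean, and COL1A1 (mean 416) made up most of their summed value of 370.5 to 553 per library. VWF was the 1 of 5 endothelial markers to reach it (summed value 10.5 to 42.3), and GP1BA the 1 of 4 platelet markers (38.1 to 102), with PF4 and PPBP at 0. The epithelial list summed higher in all 3 treated libraries than in any Control library, but KRT8 alone, at 55603, 60058 and 64134 in Control and 92924, 106391 and 125395 with DCC-2036, made up most of that difference. CDH1 was called higher as well (1.10, adjusted p = 0.000354). KRT20 was called lower (−1.15, adjusted p = 0.00427), and KRT18 (0.37), EPCAM (0.29), KRT19 (0.040) and CDX2 (−0.085) were not called. The part of these lists in any result was not tested.

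With DCC-2036, RNA was higher for 8 tetraspanins and lower for 1 tetraspanin and 1 integrin, called at an adjusted p under 0.01. The p-values are from limma with Benjamini-Hochberg adjustment over the 12725 genes that reached 10 in 3 or more libraries. The genes higher were TSPAN13, TSPAN14, TSPAN1, TSPAN31, CD82, TSPAN5, CD81 and TSPAN15, and the genes lower were TSPAN33 and ITGB8. Of the 53 members, 36 passed the filter on low values (15 integrins and 21 tetraspanins) and 17 did not. Over all genes tested, 19.2% were called higher, 22.7% lower and 41.9% in either direction. Against that background, 8 of 36 members were called higher, a share of 22.2%, and 2 lower, a share of 5.56%. Those 8 are all tetraspanins. The count of tetraspanins called higher depended on the libraries kept. It was 4 with Control replicate 1 left out, and 5 with Control replicate 2, Control replicate 3 or DCC-2036 replicate 2 left out, and it stayed at 8 with DCC-2036 replicate 1 or 3 left out. In the 4 fits with fewer, 968, 942, 965 and 929 of all genes were called higher, in that order, beside 2442 with all libraries. Every value of the 10 called members was well above the filter, the lowest being 63.8 for TSPAN1 in Control replicate 2.

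No test of a list was made, and the families are given by their counts. Integrins gave 0 called higher and 1 called lower of 15, and tetraspanins 8 higher and 1 lower of 21. At an unadjusted p under 0.05 in the same fit, 4 integrins were higher and 3 lower of 15, beside 3887 higher and 4590 lower of all 12725 genes. Limma with a mean-variance trend called 2 integrins higher, ITGA6 and ITGB1. With DCC-2036 replicate 1 left out 3 integrins were called higher, and with DCC-2036 replicate 3 left out 1. The groups did not overlap for 9 of the 15 integrins and 12 of the 21 tetraspanins, beside 71.1% of all genes tested, shares no higher than that background. Fold changes are on the log2(value + 1) scale, which understates the change of genes with low values. The median log2 fold change was −0.31 for the integrins and 0.28 for the tetraspanins, beside −0.092 for all genes. Both family medians depended on single libraries. That of the integrins was −0.19 without DCC-2036 replicate 1 and −0.095 without DCC-2036 replicate 2, where all genes had −0.094, and that of the tetraspanins was 0.17 without DCC-2036 replicate 3.

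When the libraries were set to equal totals, the median of all genes went to −0.28, that of the tetraspanins to 0.089 and that of the integrins to −0.50. This scaling lowers nearly every log2 fold change by the same amount, so it cannot change how far these medians lie apart. With that scaling 1716 genes were called higher and 3386 lower, so 33.6% of all calls were in the higher direction, beside 2442 and 2887 (45.8%) as deposited. The median of the integrins lay below 0 in all 3 scalings tried but above it with no filter on low values (0.16), with a value of at least 10 asked of all libraries (0.040) or with transcripts summed per symbol (0.034). For the tetraspanins it stayed above 0 in all 15 refits.

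**Figure D1:**
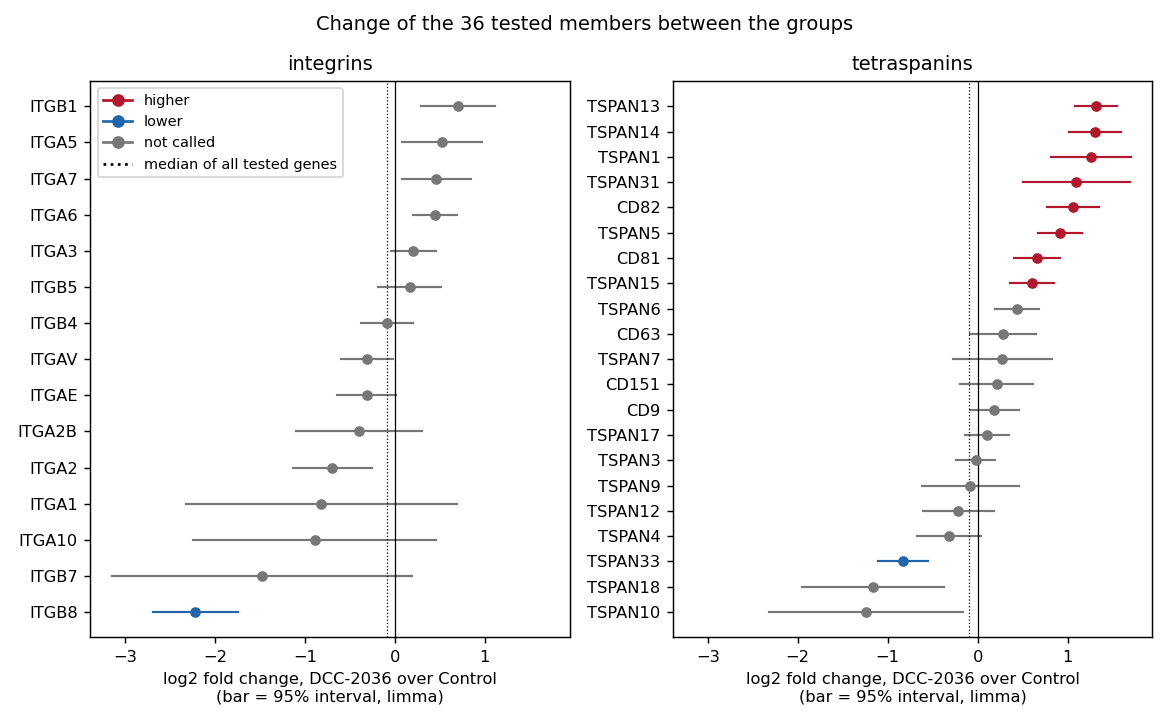
Log2 fold change of each tested integrin (left) and tetraspanin (right), DCC-2036 over Control, with 3 libraries per group. Points are limma estimates on the log2(value + 1) scale, bars their 95% intervals, colours the call at an adjusted p under 0.01, and the dotted line the median of all tested genes (−0.092); ITGB8 lies lowest at −2.22 and TSPAN13 highest at 1.32.

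The promoters of the 4 called members with the largest changes are shown because these genes moved most, 3 upward and 1 downward. Windows are the 250 bases before a RefSeq gene start on GRCh38.p14, the most upstream start where a gene has several, read 5′ to 3′ on the strand of the gene. Capitals mark GC boxes, the letters GGGCGG on either strand, so that CCGCCC is the same box read on the other strand. All 4 genes are on the plus strand, ITGB8 at chr7:20330650-20330899, TSPAN13 at chr7:16753505-16753754, TSPAN14 at chr10:80454060-80454309 and TSPAN1 at chr1:46174837-46175086. GENCODE 29 starts each of these genes inside its window, at 20330702, 16753535, 80454166 and 46175073 in the same order, so part of each window can also be transcribed. That part is most of the window for ITGB8, TSPAN13 and TSPAN14 and its last bases for TSPAN1, and most of the marked GC boxes lie in it.
ITGB8: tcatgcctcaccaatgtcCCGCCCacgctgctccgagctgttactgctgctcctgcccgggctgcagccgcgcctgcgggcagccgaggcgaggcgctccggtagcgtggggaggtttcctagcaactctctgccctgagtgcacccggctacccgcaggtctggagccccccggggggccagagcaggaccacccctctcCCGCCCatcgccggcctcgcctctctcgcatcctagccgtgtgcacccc
TSPAN13: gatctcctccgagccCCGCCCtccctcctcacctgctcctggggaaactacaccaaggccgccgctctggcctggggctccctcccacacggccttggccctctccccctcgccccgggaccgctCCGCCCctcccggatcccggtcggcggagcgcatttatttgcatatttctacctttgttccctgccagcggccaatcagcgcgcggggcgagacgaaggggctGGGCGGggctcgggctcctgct
TSPAN14: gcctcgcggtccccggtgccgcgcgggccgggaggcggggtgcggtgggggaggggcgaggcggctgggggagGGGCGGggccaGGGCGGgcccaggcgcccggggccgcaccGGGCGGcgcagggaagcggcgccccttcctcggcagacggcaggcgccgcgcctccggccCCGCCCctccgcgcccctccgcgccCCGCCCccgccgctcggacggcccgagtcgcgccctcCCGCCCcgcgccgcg
TSPAN1: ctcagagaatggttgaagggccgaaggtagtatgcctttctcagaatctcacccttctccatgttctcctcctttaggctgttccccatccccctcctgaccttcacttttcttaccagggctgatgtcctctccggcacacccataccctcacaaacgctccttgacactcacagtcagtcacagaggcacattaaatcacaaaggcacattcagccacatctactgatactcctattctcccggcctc

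The window of ITGB8, which fell, held 2 GC boxes, those of TSPAN13 and TSPAN14, which rose, held 3 and 6, and that of TSPAN1, which also rose, held 0. A window was found for 37 of the 53 members and for 27 of the 36 tested. A GC box was present in 13 of these 27 windows (48.1%), beside 68.2% of 9917 tested genes with a window and 42.2% of all 27305 windows. By call, 5 of 7 members higher, 2 of 2 lower and 6 of 18 not called had one. The AP-1 letters TGANTCA were in 1 of the 27 windows (3.70%), that of TSPAN10, and in 3.77% of the windows of tested genes and 6.57% of all windows. The letters TGATGNAA, a composite element of ATF4, were in 1 (3.70%), that of ITGB5, and in 1.27% of the windows of tested genes and 3.19% of all windows. All were searched on both strands; the AP-1 and ATF4 letters both start with TGA, and neither holds the GC box. These matches describe letters in a window and say nothing of binding.

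Among the beta subunits, ITGB8 changed most. ITGB8 pairs with ITGAV and binds the latent form of TGF-beta. Its values were 512, 387 and 436 in Control replicates 1 to 3 and 121, 89.9 and 76.8 in DCC-2036 replicates 1 to 3, the order in which library values are given from here on. Every treated library lay far below every Control library, and the treated mean was 21.6% of the Control mean. The log2 fold change was −2.22 (SE 0.20, adjusted p = 0.000416), with a 95% interval of −2.69 to −1.74. In bulk RNA, fewer cells with a transcript and less RNA per cell cannot be told apart.

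ITGB1, the beta chain shared by most matrix receptors, stood at 8433, 7979.6 and 7583 in Control and 10574.5, 12817 and 16326 with DCC-2036. All 3 treated libraries lay above all Control libraries, but they spread widely, with replicate 3 far above replicate 1. The log2 fold change of 0.71 (SE 0.17, adjusted p = 0.0121) missed the threshold. ITGB1 was called in 3 of 15 refits, with a trend (adjusted p = 0.0029), with a value of at least 10 asked of all libraries (0.00905) and with DCC-2036 replicate 1 left out (0.00329), over a range of 0.0029 to 0.0457. ITGB4, the hemidesmosome chain that pairs with ITGA6, stood at 5627, 4732 and 5427 in Control and 4904, 4580.2 and 5405 with DCC-2036. These groups overlapped, and the log2 fold change was −0.084 (SE 0.12, adjusted p = 0.56), with a 95% interval of −0.37 to 0.20 that holds 0 and a range over refits of −0.27 to −0.0022. GALK1, which overlaps ITGB4 on the opposite strand, fell (−0.58).

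ITGB5, a partner of ITGAV in vitronectin binding, overlapped between groups as well, with a log2 fold change of 0.16 (SE 0.14, adjusted p = 0.348) that turned to −0.025 when libraries were scaled to equal totals. ITGB7, which pairs with ITGA4 and ITGAE on lymphocytes, was low at 37.9, 24.6 and 8.86 in Control and 2.15, 11.8 and 10.4 with DCC-2036. Its estimate of −1.47 (SE 0.69, adjusted p = 0.106) was not called and went to −0.83 without DCC-2036 replicate 1 and −2.03 without Control replicate 3. ZNF740, which overlaps ITGB7 on the opposite strand, fell (−2.85 on the log2 scale).

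Levels can be compared between genes only per length, given here as value per kb of the GENCODE 29 transcript (mean ± SD, n = 3). ITGB1 led the beta chains at 2197 ± 117 per kb in Control and 3637 ± 796 with DCC-2036. ITGB4 followed at 889 ± 79.3 and 838 ± 70.2, and ITGB5 at 213 ± 5.09 and 241 ± 42.1. As a share of the summed per-kb value of the 8 beta chains, ITGB1 went from 65.4% ± 1.86 to 76.6% ± 2.74 and ITGB4 from 26.4% ± 1.74 to 18.0% ± 2.61. ITGB8 was a minor chain in both groups, from 1.51% ± 0.142 to 0.243% ± 0.0993 of that sum. The balance of beta RNA thus lay further toward ITGB1 in every treated library, from 73.5% to 78.7%, than in any Control library, from 63.7% to 67.4%.

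**Figure D2:**
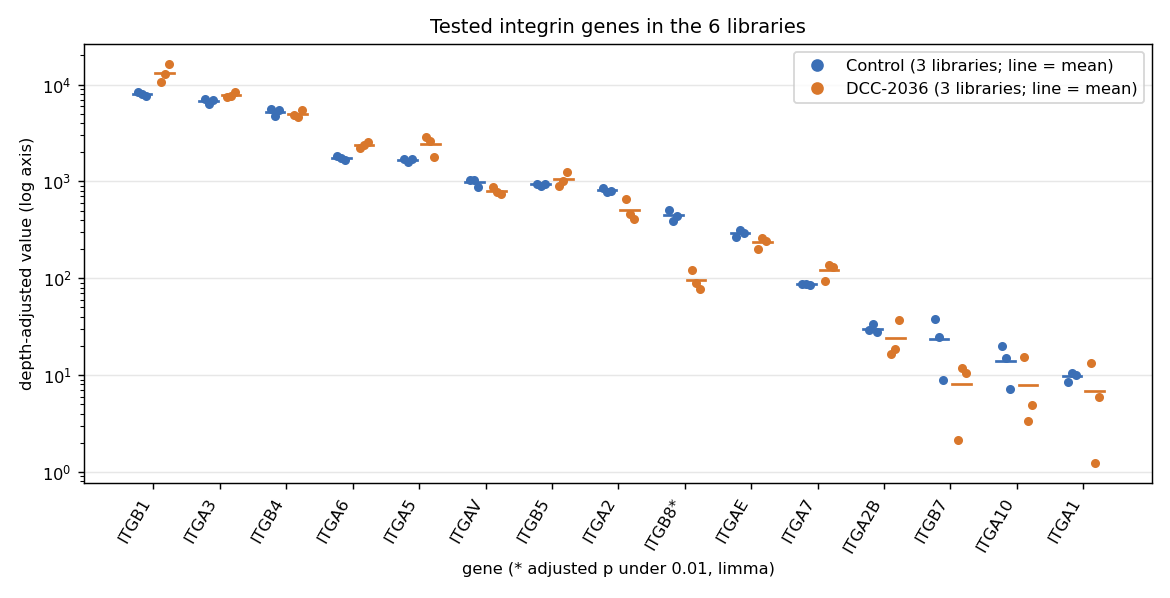
Depth-adjusted values (log axis) of the 15 tested integrin genes, ordered by Control mean, with 1 point per library, 3 libraries per group and a line at the group mean. ITGB8, starred, is the 1 gene called: its treated libraries lie at 76.8 to 121 and its Control libraries at 387 to 512.

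The alpha subunits of the laminin receptors, ITGA3, ITGA6 and ITGA7, were not called, though as deposited the treated libraries were higher without overlap in each. At equal totals the differences shrank, to 0.015 for ITGA3, 0.25 for ITGA6 and 0.27 for ITGA7 on the log2 scale. ITGA3, the main laminin receptor chain of many epithelia, stood at 7042, 6328 and 7004 in Control and 7449, 7694 and 8343 with DCC-2036. Its difference was small at 0.21 (SE 0.10, adjusted p = 0.127). ITGA6, which pairs with ITGB4 or ITGB1, measured 1835, 1761 and 1664 in Control and 2225, 2399 and 2541 with DCC-2036. The treated mean was 136% of the Control mean, and the log2 fold change of 0.44 (SE 0.10, adjusted p = 0.0101) lay just outside the threshold. It was called in 4 of 15 refits, among them the one with DCC-2036 replicate 1 left out (adjusted p = 0.00802, range over refits 0.00293 to 0.0556).

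ITGA7, a laminin receptor chain best known from muscle, measured 87.5, 87.8 and 84.6 in Control and 94.5, 138 and 131 with DCC-2036. Its log2 fold change was 0.46 (SE 0.16, adjusted p = 0.0433), and 0.63 with DCC-2036 replicate 1 left out (adjusted p = 0.00266, range over refits 0.00266 to 0.138). BLOC1S1 and METTL7B overlap ITGA7 on the opposite strand. Per kb, ITGA3 stood at 1389 ± 82.2 in Control and 1602 ± 94.6 with DCC-2036, against 312 ± 15.3 and 425 ± 28.1 for ITGA6. ITGA3 made up more than any other chain of the summed per-kb value of the 18 alpha subunits in both groups, from 57.1% ± 1.52 to 56.0% ± 3.59, so its share moved by less than the spread between replicates.

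Of the collagen receptor chains tested, ITGA2, ITGA1 and ITGA10, all estimates were below 0 and not called. ITGA2, the most abundant of them per kb, measured 859, 786 and 788 in Control and 654, 464 and 412 with DCC-2036. The treated libraries were all lower, replicate 1 the least so, and the log2 fold change was −0.69 (SE 0.18, adjusted p = 0.0163). It was called with a trend (adjusted p = 0.00644) and with DCC-2036 replicate 1 left out, at −0.89 (adjusted p = 0.0014, range over refits 0.0014 to 0.0579). ITGA1 and ITGA10, also collagen binders, were near the filter, at 1.23 to 13.4 and 3.39 to 19.9 over all libraries. Their estimates of −0.82 and −0.89 had standard errors of 0.63 and 0.56 and were not called. Leaving out 1 library moved both: ITGA1 went from −1.44 without DCC-2036 replicate 1 to −0.095 without DCC-2036 replicate 2, and ITGA10 from −1.46 to −0.50 in the same fits. PELO lies inside the span of ITGA1 on the same strand.

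Among the chains that bind RGD ligands, ITGA5 and ITGAV differed in direction, and neither was called. ITGA5, the fibronectin receptor chain, measured 1701, 1584 and 1693.5 in Control and 2869, 2619 and 1807 with DCC-2036. All treated libraries were higher, though replicate 3 was close to the Control libraries. The log2 fold change was 0.52 (SE 0.18, adjusted p = 0.0452), and with DCC-2036 replicate 3 left out 0.72 (adjusted p = 0.00179, range over refits 0.00179 to 0.221). ITGAV, the shared alpha chain of ITGB5 and ITGB8, averaged 985 ± 86.4 in Control and 794 ± 64.4 with DCC-2036 (SD, n = 3). Its groups did not overlap either, with every treated library lower, and its log2 fold change was −0.31 (SE 0.12, adjusted p = 0.0578).

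ITGA2B, the alpha chain of the platelet fibrinogen receptor, was low at 16.7 to 36.8 over the 6 libraries. Its groups overlapped through DCC-2036 replicate 3, the highest library, and its estimate was −0.39 (SE 0.29, adjusted p = 0.27). With that library left out it was −0.74 (adjusted p = 0.00347, range over refits 0.00347 to 0.581). ITGAE, which binds E-cadherin together with ITGB7, was the 1 leukocyte alpha chain to pass the filter. It averaged 292 ± 26.6 in Control and 235 ± 29.7 with DCC-2036, with a log2 fold change of −0.32 (SE 0.14, adjusted p = 0.0838).

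Tetraspanins known by CD names all passed the filter, and 2 of 5 were called higher, CD81 and CD82. That is 40% higher and 0% lower, beside 19.2% and 22.7% of all genes. CD81, a partner of integrins and part of the B cell coreceptor, stood at 4343, 4909 and 5023 in Control and 7519, 7887 and 7170.04 with DCC-2036. Every treated library lay above every Control library by more than the spread within either group. The log2 fold change was 0.66 (SE 0.11, adjusted p = 0.00256), with a 95% interval of 0.41 to 0.92. The call was nevertheless lost with any of 4 libraries left out, at equal totals and with the replicate number as a block. The adjusted p was 0.0131 without Control replicate 1, 0.0135 without Control replicate 2, 0.0111 without Control replicate 3 and 0.0153 without DCC-2036 replicate 2. It was 0.011 at equal totals and 0.0127 with the block.

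CD82, described as a metastasis suppressor, measured 168, 166 and 189.7 in Control and 403, 366 and 329 with DCC-2036. The treated mean was 209.6% of the Control mean, a log2 fold change of 1.06 (SE 0.12, adjusted p = 0.000819), and the call held in all 15 refits. Against these, CD9, a tetraspanin of cell fusion and adhesion, stood at 2734, 2803 and 3035 in Control and 3123, 3026 and 3615 with DCC-2036. Its groups overlapped and its log2 fold change of 0.19 (SE 0.11, adjusted p = 0.194) turned to −0.0048 at equal totals.

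CD63, which marks late endosomes and exosomes, measured 2945, 3317 and 3552 in Control and 3352, 4036 and 4656 with DCC-2036. CD151, the closest tetraspanin partner of laminin-binding integrins, had 2862, 3306 and 3406 in Control and 2996, 3719 and 4485 with DCC-2036. In both genes the treated libraries spread from inside the Control range to well above it. Their log2 fold changes of 0.29 (SE 0.15, adjusted p = 0.144) and 0.21 (SE 0.17, adjusted p = 0.31) were not called. At equal totals the log2 fold change of CD63 was 0.097 and without DCC-2036 replicate 3 0.17. In the same order the log2 fold change of CD151 was 0.021 and 0.069, and POLR2L overlaps CD151 on the opposite strand. Per kb, CD81 stood at 3130.4 ± 239.6 in Control, next to CD63 at 3057 ± 286, a difference within their spread. With DCC-2036, CD81 was at 4951 ± 236 per kb and CD63 at 3752 ± 609.8, so CD81 led by more than either SD. CD9 followed at 2346 ± 129 and 2672 ± 259 per kb, and CD151 at 2066 ± 188 and 2416 ± 482.

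The TspanC8 tetraspanins carry the protease ADAM10 from the endoplasmic reticulum to the cell surface and steer which substrates it cuts. Of 6 genes, 3 were called higher (TSPAN14, TSPAN5 and TSPAN15), 1 lower (TSPAN33) and 2 not called (TSPAN17 and TSPAN10). The shares were 50% higher and 16.7% lower, beside 19.2% and 22.7% of all genes. TSPAN14 measured 1276, 1101 and 1276 in Control and 2699, 3146 and 3163 with DCC-2036. Every treated library was more than double every Control library, and the log2 fold change was 1.30 (SE 0.12, adjusted p = 0.000449) with a 95% interval of 1.01 to 1.59. TSPAN5 stood at 1217, 1197 and 1215 in Control and 2153, 2494 and 2199 with DCC-2036. Both groups were tight and far apart, and its log2 fold change was 0.91 (SE 0.10, adjusted p = 0.00079).

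TSPAN15 rose less, from 275, 285 and 271 in Control to 453, 423 and 393 with DCC-2036. Its log2 fold change was 0.61 (SE 0.10, adjusted p = 0.00287), and its call was lost in the same settings as that of CD81. Here the adjusted p was 0.0154 without Control replicate 1, 0.0155 without Control replicate 2, 0.0166 without Control replicate 3 and 0.0162 without DCC-2036 replicate 2. At equal totals it was 0.0245, and with the block 0.0136. TSPAN33 fell, from 413, 430.3 and 419.7 in Control to 268, 219.8 and 222 with DCC-2036. Its treated mean was 56.2% of the Control mean, with a log2 fold change of −0.83 (SE 0.12, adjusted p = 0.00155). Its call was lost in 1 refit, without Control replicate 2 (adjusted p = 0.0105, range over refits 0.000696 to 0.0105).

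TSPAN17 stood at 1374, 1483 and 1541 in Control and 1499, 1597 and 1629 with DCC-2036, overlapping groups with a log2 fold change of 0.10 (SE 0.10, adjusted p = 0.389) that turned to −0.086 at equal totals. TSPAN10 was low, at 23.5, 33.7 and 20.1 in Control and 12.4, 4.52 and 17.2 with DCC-2036. All treated libraries were lower, and the log2 fold change of −1.24 (SE 0.45, adjusted p = 0.0483) was not called and went to −0.74 without DCC-2036 replicate 2. NPLOC4 overlaps TSPAN10 on the opposite strand. ADAM10 itself, the shared cargo, gave −0.14 (SE 0.17, adjusted p = 0.50), which turned to 0.039 with DCC-2036 replicate 3 left out. The TspanC8 genes thus changed in both directions beside a protease whose own RNA was not called. The transcript that represents TSPAN14 had no length here, so the gene was left out of per-kb values. Among the others, TSPAN17 led in Control at 575 ± 33.3 per kb, ahead of TSPAN5 at 359 ± 3.28. With DCC-2036 they stood at 618 ± 26.7 and 678 ± 55.1, a difference close to the SD of TSPAN5.

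The remaining 10 tested tetraspanins gave 3 calls, TSPAN13, TSPAN1 and TSPAN31, all higher. These shares, 30% higher and 0% lower, stand beside 19.2% and 22.7% of all genes. TSPAN13 measured 337.5, 357 and 353 in Control and 814, 898 and 904 with DCC-2036. Both groups were tight, the treated mean was 249.8% of the Control mean, and the log2 fold change of 1.32 (SE 0.098, adjusted p = 0.000277) had the smallest adjusted p of the 36 members tested. TSPAN1 stood at 74.3, 63.8 and 88.6 in Control and 183, 149.6 and 216 with DCC-2036. Its log2 fold change was 1.26 (SE 0.18, adjusted p = 0.00182), and its call was lost only without Control replicate 1 among the 15 refits (adjusted p = 0.0103, range over refits 0.000834 to 0.0103).

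TSPAN31, first described as a gene amplified in sarcomas beside CDK4, measured 134, 172 and 156 in Control and 242, 316 and 466 with DCC-2036. The treated libraries differed among themselves, with replicate 3 the highest. Its log2 fold change was 1.10 (SE 0.25, adjusted p = 0.00902), just inside the threshold, and the call was easily lost. The adjusted p was 0.0368 without Control replicate 1, 0.0229 without Control replicate 2, 0.0316 without Control replicate 3 and 0.028 without DCC-2036 replicate 2. It was 0.0123 at equal totals, 0.0125 with the replicate block, 0.0196 with no filter and 0.0111 with transcripts summed. CDK4 and AGAP2 overlap TSPAN31 on the opposite strand, and both fell, CDK4 at −0.90 and AGAP2 at −1.94 on the log2 scale. The library kit in the labels, Nextera XT, does not mark strand, so reads from sequence shared by overlapping genes cannot be told apart. Overlaps here were taken from whole gene spans, and shared exons were not checked.

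TSPAN6, TSPAN3, TSPAN9, TSPAN7, TSPAN12, TSPAN4 and TSPAN18 were not called. TSPAN6 averaged 524 ± 36.5 in Control and 707 ± 30.1 with DCC-2036 (SD, n = 3), and its log2 fold change of 0.43 (SE 0.10, adjusted p = 0.0108) lay just outside the threshold. It was called with a trend, with the median of ratios, with transcripts summed and with a value of at least 10 asked of all libraries (adjusted p over refits 0.00696 to 0.0661). TSPAN3 was nearly level, at 2170.1, 2224 and 2193 in Control and 2141, 2121 and 2233 with DCC-2036. Its log2 fold change was −0.021 (SE 0.090, adjusted p = 0.851), with a 95% interval of −0.24 to 0.20, and it turned to 0.061 when libraries were scaled by the median of ratios. TSPAN18, known from endothelial calcium signalling, averaged 234 ± 14.0 in Control and 112 ± 53.4 with DCC-2036. Its treated libraries were all lower but ranged from 64.5 to 169.7. The log2 fold change was −1.16 (SE 0.33, adjusted p = 0.0213), called with a trend (adjusted p = 0.00961) and, at −1.51, with DCC-2036 replicate 1 left out (adjusted p = 0.00178, range over refits 0.00178 to 0.0663). TP53I11, which overlaps TSPAN18 on the opposite strand, fell (−0.96).

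The other 4 had overlapping groups. TSPAN9, a platelet tetraspanin, gave −0.082 (SE 0.22, adjusted p = 0.763), which turned to 0.16 without DCC-2036 replicate 3. TSPAN7, a gene of X-linked intellectual disability, gave 0.28 (SE 0.23, adjusted p = 0.32), from 0.089 to 0.49 over the refits. TSPAN12, a coreceptor in Norrin signalling through FZD4, gave −0.21 (SE 0.16, adjusted p = 0.286), or −0.043 without DCC-2036 replicate 3 and −0.40 at equal totals. TSPAN4, which marks migrasomes, gave −0.32 (SE 0.15, adjusted p = 0.102), from −0.51 to −0.20 over the refits.

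**Figure D3:**
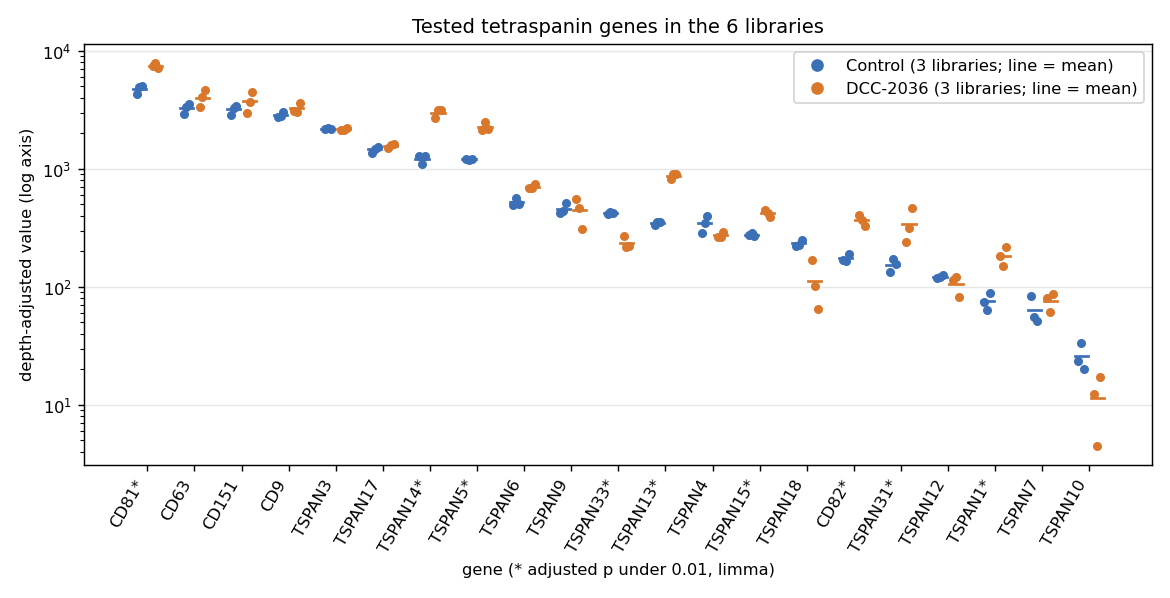
Depth-adjusted values (log axis) of the 21 tested tetraspanin genes, ordered by Control mean, with 1 point per library, 3 libraries per group and a line at the group mean. The 9 starred genes were called; TSPAN14 lies at 1101 to 1276 in Control and at 2699 to 3163 with DCC-2036, while TSPAN33 lies lower with DCC-2036, at 219.8 to 268 beside 413 to 430.3.

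The 17 members under the filter were 11 integrins and 6 tetraspanins, and no fold change is given for them. ITGA8 was listed at 0 in all 6 libraries. ITGB2, the chain shared by leukocyte integrins, was listed at 1.92 in Control replicate 1 and at 0 elsewhere. Its alpha partners ITGAD, ITGAL, ITGAM and ITGAX had values of at most 13.6, and ITGA4 and ITGA9 of at most 10.3. ITGA11 reached at most 5.58 and ITGB6 at most 5.15. ITGB3, which pairs with ITGAV and ITGA2B, was at 17.1, 9.54 and 9.11 in Control and 4.14, 3.25 and 2.42 with DCC-2036, without overlap but too low to be tested. In the other direction ITGAL (under 1 against 5.22, 3.37 and 13.6) and ITGAX (3.74, 6.26 and 2.70 against 10.3, 6.56 and 8.23) did not overlap either. TSPAN2, TSPAN8, TSPAN11, TSPAN16, TSPAN19 and TSPAN32 had values of at most 4.10. TSPAN8, TSPAN16 and TSPAN19 were at 0 in all Control libraries, and their treated values began at 0.01, too close to 0 to count as a difference. Apart from ITGAE and ITGB7, which passed the filter, the leukocyte integrins were thus low in all 6 libraries, like the leukocyte markers.

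Where a member had several tested transcripts, their fold changes had the same sign. The 3 transcripts of ITGB1 had log2 fold changes of 0.71 at both ends of their range, the 8 of CD63 ranged from 0.26 to 0.29, and the 7 of TSPAN4 from −0.37 to −0.27. These transcripts overlap and share reads, so they are not independent measurements. With every transcript fitted on its own, an alternative added after the data were seen, 2 of 3 transcripts of ITGA6 and 5 of 5 of TSPAN6 were called, at log2 fold changes of 0.44 to 0.45 and 0.43 to 0.52. Both genes lay just outside the threshold in the fit with 1 transcript per gene. Of the called TSPAN31, 2 of 3 transcripts were called and the other lay just outside the threshold (adjusted p = 0.0105).

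Ratios of 2 genes inside the same library depend little on how libraries were scaled, and pairs were picked after their values were seen, so they are a description with no p (mean ± SD, n = 3). The log2 ratio of ITGB1 to ITGB4 was 0.61 ± 0.14 in Control and 1.40 ± 0.25 with DCC-2036. ITGB1 to ITGB8 gave 4.17 ± 0.17 in Control and 7.10 ± 0.64 with DCC-2036, and ITGB1 to ITGB5 gave 3.10 ± 0.082 in Control and 3.64 ± 0.066 with DCC-2036. In all 3 pairs every treated library lay further toward ITGB1 than any Control library. ITGA6 to ITGB4, the chains of the hemidesmosome integrin, was −1.58 ± 0.14 in Control and −1.05 ± 0.11 with DCC-2036, and ITGA6 to ITGA3 was −1.95 ± 0.11 in Control and −1.71 ± 0.031 with DCC-2036. ITGA5 to ITGAV was 0.76 ± 0.17 in Control and 1.59 ± 0.26 with DCC-2036, while ITGA2 to ITGA3 went down, from −3.06 ± 0.076 to −3.96 ± 0.42.

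Among tetraspanins, the log2 ratio of TSPAN14 to TSPAN17 was −0.27 ± 0.16 in Control and 0.93 ± 0.069 with DCC-2036, with no overlap. The ratios are not per length, so their sign does not show which gene is more abundant. TSPAN5 to TSPAN33 was 1.52 ± 0.043 in Control and 3.27 ± 0.25 with DCC-2036. CD81 to CD9 was 0.73 ± 0.071 in Control and 1.21 ± 0.20 with DCC-2036, and CD82 to CD9 was −4.03 ± 0.041 in Control and −3.15 ± 0.27 with DCC-2036, with no overlap in either. By contrast, CD81 to ITGB1 was −0.75 ± 0.19 in Control and −0.79 ± 0.36 with DCC-2036, and CD151 to its partner ITGA3 was −1.09 ± 0.19 in Control and −1.09 ± 0.21 with DCC-2036. The groups overlapped in both of these pairs, and the differences between group means were smaller than the SDs.

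Genes that work with the members were read from lists described by counts and medians beside all genes. Of 33 tested integrin activation and adaptor genes, 7 were called higher and 5 lower, shares of 21.2% and 15.2% beside 19.2% and 22.7% of all genes, with a median log2 fold change of −0.15. On the log2 scale TNS4, a tensin without an actin-binding region, fell (−3.10), as did TGFB1I1 (−1.71), TNS2 (−1.40) and CRK (−1.39), while TES rose (1.35). With Control replicate 1, 2 or 3 or DCC-2036 replicate 2 left out, CRK (adjusted p 0.0241 to 0.0326) and TES (0.0119 to 0.0129) lost their calls. Of the genes that switch integrins on, TLN1 (talin) and FERMT1 (the kindlin of epithelia) were not called: TLN1 gave −0.42 (SE 0.12, adjusted p = 0.0208) and FERMT1 0.31 (SE 0.11, adjusted p = 0.0457). TLN1 was called with a trend (adjusted p = 0.00603) and with DCC-2036 replicate 1 left out (0.00922). PTK2, the focal adhesion kinase, was not called at 0.19 (SE 0.11, adjusted p = 0.173), which turned to −0.0032 at equal totals. ILK, a scaffold at beta tails, was not called either, at 0.23 (SE 0.098, adjusted p = 0.0763).

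Among 10 tested inactivators, their regulators and trafficking genes, 4 were called lower (40%, beside 22.7% of all genes), with a median of −0.26. These were KRIT1 (−1.51), DOK1 (−1.38), which competes with talin for beta tails, SNX17 (−1.31), which recycles ITGB1, and GGA3 (−1.05). GGA3 lost its call with Control replicate 1, 2 or 3 or DCC-2036 replicate 2 left out (adjusted p 0.0236 to 0.0269). Hemidesmosome partners of ITGA6 and ITGB4 had 4 of 6 genes called higher (66.7%, beside 19.2% of all genes) and a median of 0.80. PLEC (0.38, adjusted p = 0.0395) and DST (−0.15, adjusted p = 0.344) were not called. On the log2 scale LAMB3 rose by 1.56, COL17A1 by 1.03 and LAMA3 by 0.95. The calls were lost for LAMA3 with Control replicate 1, 2 or 3 left out (adjusted p 0.0154 to 0.0203) and for COL17A1 with Control replicate 1 or 2 or DCC-2036 replicate 2 left out (0.012 to 0.0146). All 9 laminin chains tested form a list that shares genes with the hemidesmosome list. Of these 9, 4 were called higher (44.4%, beside 19.2% of all genes), and among them LAMB2 rose by 1.37.

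Other integrin ligands gave 5 higher and 2 lower of 18, with a median of 0.55. Their shares were 27.8% and 11.1%, beside 19.2% and 22.7% of all genes. MFGE8, an RGD ligand of ITGAV integrins, rose by 1.26 on the log2 scale, CDH1, the E-cadherin bound by ITGAE and ITGB7, by 1.10, COL12A1 by 0.91 and ADAM15 by 0.73, and FBN1 fell (−1.82). COL12A1 lost its call with Control replicate 2 or 3 or DCC-2036 replicate 2 left out (adjusted p 0.0141 to 0.0153), and ADAM15 with any Control library or DCC-2036 replicate 2 left out (0.0129 to 0.016). Of 15 tetraspanin partners, 4 were called higher and 1 lower (26.7% and 6.67%, beside the same 19.2% and 22.7%), with a median of 0.24. ADAM17 rose by 1.08, IGSF8, a direct partner of CD9 and CD81, by 1.06, CD46 by 0.86 and CD44 by 0.83, and FZD4, the receptor beside TSPAN12, fell (−0.61). Calls were lost for CD44 with Control replicate 2 or 3 left out (adjusted p 0.0104 to 0.0114), and for CD46 (0.0131 to 0.0159) and FZD4 (0.0156 to 0.0248) with any Control library or DCC-2036 replicate 2 left out. PTGFRN, the other direct partner of CD9 and CD81, gave −0.34 (SE 0.19, adjusted p = 0.16), where the log2 fold change of PTGFRN without DCC-2036 replicate 3 was −0.13, and EPCAM 0.29 (SE 0.096, adjusted p = 0.0379), neither of them called. Of the tetraspanins outside the rule, 3 of 6 were tested, and UPK1A (1.29) and ROM1 (1.23) were called higher and CD37 (−1.19) lower, at values of 9.55 to 102 over these genes and libraries. ROM1 lost its call with Control replicate 1 or 2 or DCC-2036 replicate 2 left out (adjusted p 0.0129 to 0.0227). For CD37 the call was lost with any Control library left out (0.0192 to 0.024), and for UPK1A with the replicate number as a block (0.0124).

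**Figure D4:**
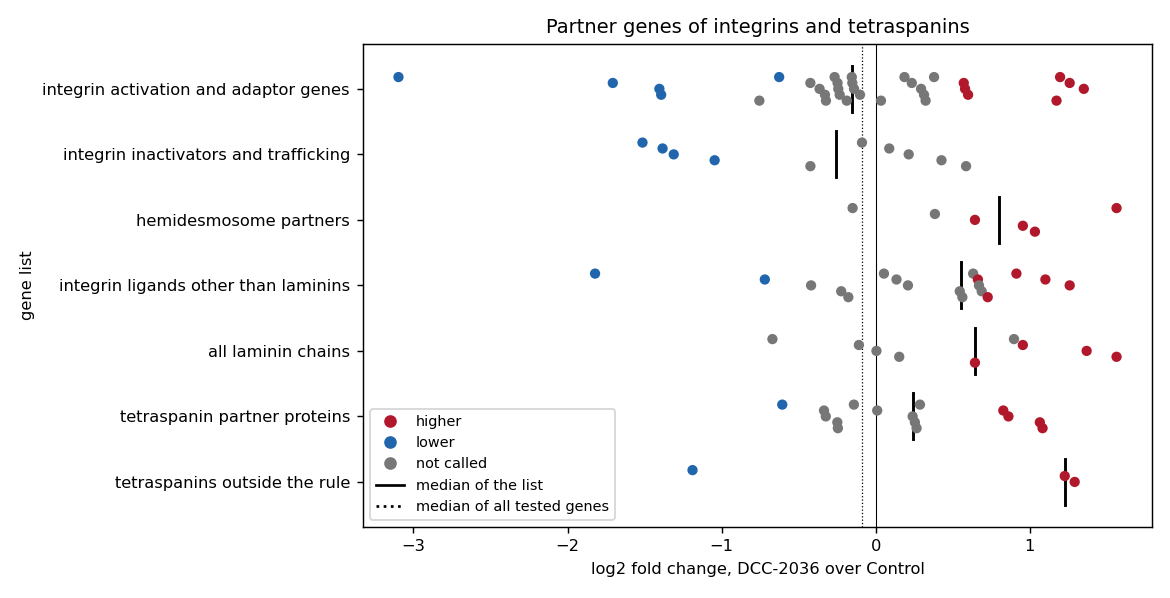
Log2 fold change, DCC-2036 over Control (3 libraries per group, limma on log2(value + 1)), of the tested genes in each partner list, with 1 point per gene coloured by its call at an adjusted p under 0.01. The bar is the median of the list and the dotted line that of all tested genes (−0.092). Hemidesmosome partners centre at 0.80. The list of integrin inactivators and trafficking genes, which also holds regulators of inactivators, centres at −0.26.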

How the data were processed

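Sequenced RNA libraries of LoVo cells (3 Control, 3 DCC-2036) were assigned to groups by their labelled titles. The deposited table holds 1 signal value per RefSeq transcript and library, which the authors adjusted to a common depth. Aligner, counting method, genome build and strand setting are not given in the sources used here. Of the values above 0, 0.179% were whole within 0.001, so reads were not recovered and depth is unknown. Columns in which the authors give their own log2 fold change, p-value and q-value were not used. No column of values per sample was left over (0).

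Each symbol was represented by its transcript of highest mean. The 12725 symbols that reached 10 in 3 or more libraries were fitted with limma 3.58.1 in R 4.3.3 on log2(value + 1), as 2 groups, two-sided, with Benjamini-Hochberg adjustment over all of them, and called at an adjusted p under 0.01. The fit was tested on simulated data. The members and lists were chosen with earlier results of these data known. All tested members are named with their direction. Library values are given for called members and for uncalled ones with a mean of at least 1000. Of each partner list, the 5 called genes of largest absolute change are named, and always TLN1, FERMT1, PTK2, ILK, ADAM10, IGSF8, PTGFRN and EPCAM, except 1 gene that is not reported here. ITGB3, ITGB7, ITGA7, ITGA2, ITGAL, ITGAX and TSPAN10 were given library values outside this rule, KRT8, KRT18, KRT19, KRT20, CDH1, EPCAM and CDX2 were singled out, and the pairs in the ratios and the motifs were chosen, after the values were seen. PLEC and DST were also named outside the rule, after the values were seen. Overlapping genes and the neighbours' fold changes come from the same fit and GENCODE 29 on GRCh38, which also gave transcript lengths through the RefSeq identifier. Promoters are from RefSeq on GRCh38.p14. Python 3.11.15 with numpy 2.4.6, pandas 2.3.3, scipy 1.17.1 and matplotlib 3.10.9 was used for the rest.

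Alternatives were 3 scalings, 2 filters, another pseudocount, a mean-variance trend, summed transcripts, the replicate number as a block, 2 thresholds, and each library left out in turn. A fit of every transcript was added after the data were seen.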

Additional observations from a re-analysis of the deposited data

How the results depend on the processing

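Over 15 refits, 5 of the 10 called members kept direction and call in all (ITGB8, TSPAN13, TSPAN14, TSPAN5 and CD82) and 5 lost the call at least once, always with the same sign. Of 26 uncalled members, 8 were called at least once. Signs turned for 5 uncalled members: at equal totals ITGB5 (−0.0253), CD9 (−0.0048) and TSPAN17 (−0.0856), with the median of ratios TSPAN3 (0.0609), and without DCC-2036 replicate 3 TSPAN9 (log2 fold change of TSPAN9 −0.2655 to 0.1555 over the libraries left out). Among partner genes they turned for PTK2 at equal totals (−0.0032) and ADAM10 without DCC-2036 replicate 3 (log2 fold change of ADAM10 −0.2766 to 0.0390 over the libraries left out). Of the 27 called partner genes that the naming rule takes, 13 kept the call in all refits and 14 lost it at least once. With no filter on low values, CRK (adjusted p = 0.0190), GGA3 (0.0150), LAMA3 (0.0105), FZD4 (0.0118), ROM1 (0.0120) and CD37 (0.0126) were among those losing it. CRK also lost the call with transcripts summed (0.0119).

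Counts moved as follows. Integrins called higher, 0 as reported, were 2 with a trend, 1 with the median of ratios, 2 with a value of at least 10 in all libraries, 4 at an adjusted p under 0.05, 1 with every transcript fitted on its own (added after the data were seen) and 0 to 3 with a library left out, 3 without DCC-2036 replicate 1 and 1 without DCC-2036 replicate 3. Integrins called lower, 1 as reported, were 2 with a trend, with no filter and at 0.05, and 1 to 2 with a library left out, 2 without DCC-2036 replicate 1 or 3. Tetraspanins called higher, 8 as reported, were 5 at equal totals and where the log2 fold change also had to reach 1 in size, and 4 to 8 with a library left out. They were 4 without Control replicate 1 and 5 without Control replicate 2 or 3 or DCC-2036 replicate 2. Tetraspanins called lower, 1 as reported, were 2 with a trend, 3 at 0.05, 0 where the log2 fold change also had to reach 1 in size and 0 to 2 with a library left out, 0 without Control replicate 2 and 2 without DCC-2036 replicate 1. Of all genes, 944 were called higher where the log2 fold change also had to reach 1 in size, and 929 to 2717 higher and 1502 to 3444 lower with a library left out. A fit without a library has fewer samples. The cause of the other moves was not tested.

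With the replicate block, tetraspanins called higher were 5 (CD81, TSPAN15 and TSPAN31 lost the call, as did the partner genes UPK1A, CRK, GGA3, COL12A1, ADAM15, CD46 and FZD4), and all genes 1202 higher and 1909 lower. Deviations of same-numbered libraries correlated at 0.081, −0.035 and −0.0033 across genes, so pairing by number was not assumed. Correlations this low cannot show that the libraries were unpaired. The precision that depth gives cannot be stated, since depth is unknown.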
